A study of Mus musculus with 6 samples.

Results

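The genes described here are 10 enzymes that turn cholesterol into bile acids or hydroxylate oxysterols: Cyp7a1, Cyp8b1, Cyp27a1, Cyp7b1, Cyp39a1, Cyp46a1, Baat, Slc27a5, Hsd3b7 and Akr1d1. They were taken by symbol from a list of names, drawn up with earlier results of these data known, and all 10 were found among the 18419 genes that had any count. They were measured by RNA-seq in 6 whole livers of male Mettl14f/f mice, which carry loxP sites in the gene for an RNA m6A methyltransferase subunit. All 6 mice began a high fat diet (HFD) at 8 weeks of age, received a vector through the tail vein after 10 weeks of diet, and gave liver RNA 8 weeks after that. The 3 control mice received AAV8-TBG-GFP, and their labelled genotype was WT. The other 3 received AAV8-TBG-Cre, and theirs was METTL14 KO. Both groups therefore carried the floxed alleles, the diet and a virus. The TBG promoter drives Cre in hepatocytes, so the other cell types of the liver keep Mettl14, and their RNA was part of each sample.

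Bile acids are made in hepatocytes along a pair of routes. The neutral route opens with Cyp7a1 and sends its intermediates past Cyp8b1, which decides how much cholic acid is made. The acidic route opens with side-chain oxidation by Cyp27a1 and continues with Cyp7b1, while Cyp39a1 and Cyp46a1 act on oxysterols or make them. The ring is also altered by Hsd3b7 and Akr1d1, while Slc27a5 activates bile acids and Baat joins activated ones to taurine or glycine. Bile acids limit their own synthesis through the nuclear receptor FXR, and the liver's enzymes also follow the clock and the sex of the animal.

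The libraries held between 20356440 and 21010508 counts, and the 10 most abundant genes took 15.8 to 17.7% of them. No pair of livers within a group was as alike as sampling noise allows. The labels do not say more of how the livers were kept apart than their replicate numbers, so p-values measure the spread between these samples. Mettl14 itself was at 6.30, 6.43 and 5.81 CPM (counts scaled to library size) with AAV8-TBG-GFP and at 4.96, 5.38 and 4.86 CPM with AAV8-TBG-Cre. On that scale it was lower in all 3 Cre livers, with a log2 fold change of -0.29 (SE 0.15) that missed the call (unadjusted p = 0.101 and adjusted p = 0.337, edgeR), and the groups below are named by their labels. In the deposited FPKM its groups overlapped (2.31, 2.31 and 2.01 against 1.92, 2.40 and 1.82), and AAV8-TBG-Cre replicate 2 was the highest liver. For male livers at an earlier time after these vectors, the paper reports substantially less METTL14 protein with AAV8-TBG-Cre by immunoblot. It also reports lower total liver m6A by dot blot. Library names come in a short form (AAV8-TBG-GFP replicates 1 and 2, AAV8-TBG-Cre replicate 1) and a long form (the other 3), which the labels leave unexplained. Within either form, the log2 ratio of the groups' mean CPM was therefore also taken. That ratio comes from no fit, and in each form 1 of the groups has only 1 liver.

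A gene was called when its unadjusted p was under 0.05 and its fold change at least 1.2 in edgeR's quasi-likelihood test across 13431 genes. By that rule 4 of the 10 genes were lower with AAV8-TBG-Cre (Cyp46a1, Cyp27a1, Baat and Akr1d1), against 8.41% of all genes tested. Cyp7a1 was the 1 gene of the 10 called higher, against 12% of all genes. The balance of calls over all genes depended on the scaling, with 41.1% of them lower in this fit, 27.7% with upper quartile normalization and 16.3% with limma on log2(FPKM + 1), where 3.01% of genes tested were lower. Called in either direction were 5 of 10, against 20.5% of all genes. After Benjamini-Hochberg adjustment over all genes, 1 of the 10 stayed under 0.05, which was Cyp46a1, against 0.931% of all genes. The 2 groups' CPM ranges were apart for 4 genes (Cyp7a1, Cyp27a1, Cyp46a1 and Baat), against 27% of all genes. In the deposited FPKM they were apart for 3 (Cyp7a1, Cyp46a1 and Baat), against 28.5% of all genes. Fold changes were negative for 8 genes and positive for 2, and their median on the log2 scale was -0.31 where that of all genes was -0.0065. With 3 livers a group, an exact two-sided permutation test of one gene cannot go below p = 0.1.

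**Figure D1:**
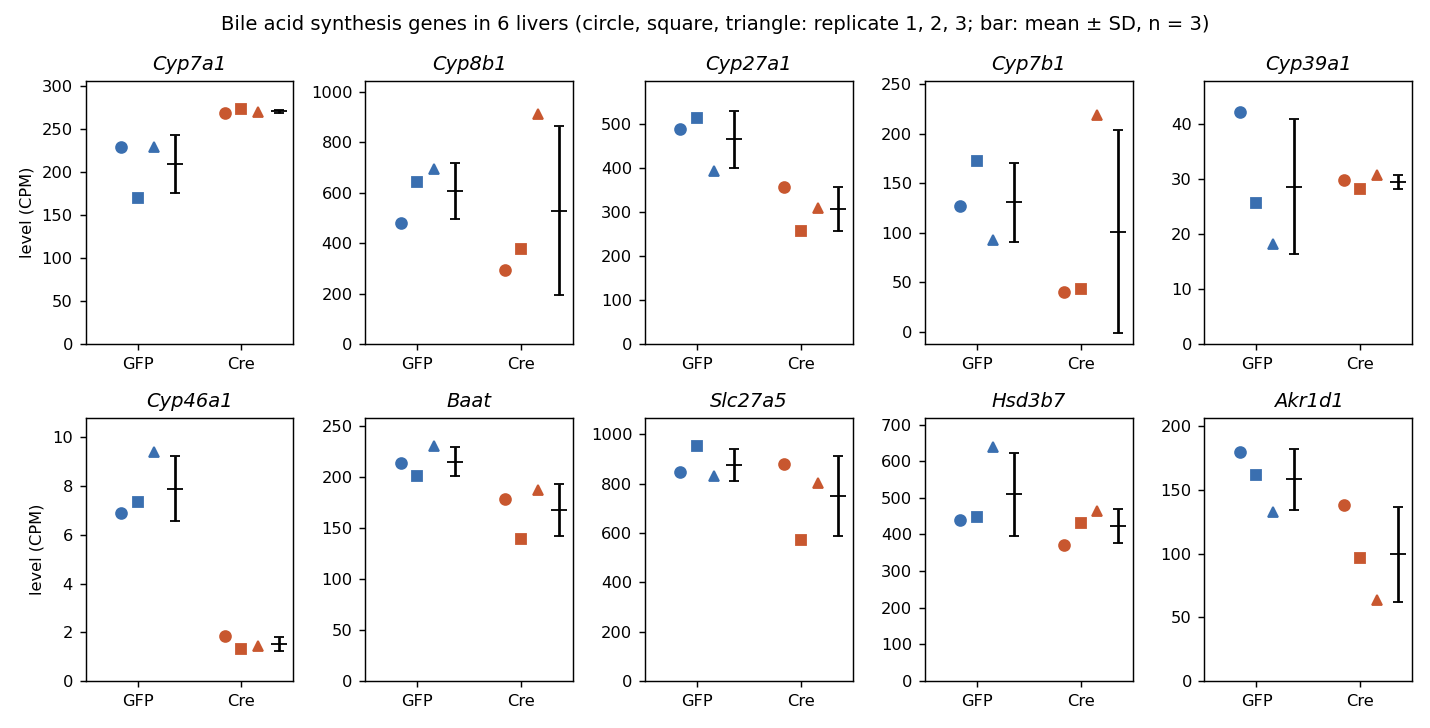
CPM of each of the 10 genes in each liver, with AAV8-TBG-GFP and AAV8-TBG-Cre side by side; each point is 1 liver, bars are group means with SD, and each panel has its own axis, which starts at 0 or, for Cyp7b1, just below it to hold the SD bar. Cyp46a1 separates most widely (6.91 to 9.42 against 1.31 to 1.86 CPM), and AAV8-TBG-Cre replicate 3 lies far above its group in Cyp8b1 and Cyp7b1.

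Cyp46a1, the cholesterol 24-hydroxylase best known from neurons, showed the largest difference of the 10 and the lowest level. Its counts were 136, 144 and 180 in the AAV8-TBG-GFP livers and 39, 32 and 30 in the AAV8-TBG-Cre livers. On the CPM scale these were 6.91, 7.35 and 9.42 against 1.86, 1.31 and 1.44. Every Cre liver lay below every GFP liver. The means were 7.89 ± 1.34 and 1.54 ± 0.286 CPM (SD, n = 3 each), which is 5.12-fold higher with GFP. The log2 fold change was -2.36 (SE 0.23; adjusted p = 0.0184, edgeR; exact permutation p = 0.1). The log2 ratio of mean CPM was -1.94 among short-named and -2.77 among long-named libraries. Leaving out each liver in turn gave log2 fold changes of -2.51 to -2.22, and the gene was called in all 16 alternative analyses. Its adjusted p was under 0.05 in 10 of these 16 and ranged from 2.78e-14 with DESeq2 to 0.0836 without AAV8-TBG-GFP replicate 2.

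Since Cyp46a1 is a neuronal gene, the marker list for neurons was read beside it. Of 6 neuron markers 3 had enough counts to test, and 1 was called lower (against 8.41% of all genes tested). Their summed level was 15.3 to 20.4 CPM with GFP and 13.9 to 15.5 CPM with Cre, most of it Syt1. This and the neuron genes that follow were picked for mention after their values were seen. Syt1 was the gene called lower, at 16.7, 18.1 and 14.3 CPM with GFP and 11.8, 11.5 and 12.2 CPM with Cre. Its log2 fold change was -0.47 (SE 0.12, adjusted p = 0.0979, edgeR), and its groups were apart in CPM but overlapped in FPKM. The other 2 tested, Rbfox3 and Map2, had fold changes above 0 (0.37, SE 0.57, and 0.73, SE 0.52, on the log2 scale) that were not called. Tubb3, too low to test, was higher in each Cre liver (0.0954 to 0.329 CPM) than in each GFP liver (0.0508 to 0.0523 CPM). Snap25, a defining marker also too low to test, was at 0.407, 0.306 and 0.0523 CPM with GFP and at 0.0954, 0.0411 and 0.144 CPM with Cre. The 5 adipocyte markers summed to 13.9 to 39.7 CPM with GFP and 2.26 to 2.96 CPM with Cre, without overlap. That sum was mostly Cfd (9.25, 20.5 and 24.7 against 0.764, 0.616 and 0.626 CPM) and Cidea (3.76, 9.23 and 13.9 against 0.382, 0.575 and 0.337 CPM), both named after their values were seen. Adipoq, the defining adipocyte marker, was near 0, at 0.204 to 0.366 CPM with GFP and 0.433 to 0.575 CPM with Cre. The part of either list in the Cyp46a1 difference was not tested.

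The sequences just before the transcription start were also read, as letters only. RefSeq promoter entries (GRCm38.p6) were found for 5 of the 10 genes (Cyp8b1, Cyp27a1, Cyp46a1, Hsd3b7 and Akr1d1). The 3 shown are Cyp46a1, which fell most, Akr1d1, which fell with overlapping groups, and Cyp8b1, which was not called. The first is chr12:108334066-108334267 on the plus strand, up to the base before the annotated gene, with the GC-box letters GGGCGG in capitals. The second is chr6:37529923-37529977 on the plus strand, with TGACCT in capitals, which is the nuclear receptor half-site AGGTCA read on the other strand. The third is chr9:121916306-121916555 on the minus strand, with TTATAA in capitals, which holds the TATA-box letters TATAA on both strands.
Cyp46a1: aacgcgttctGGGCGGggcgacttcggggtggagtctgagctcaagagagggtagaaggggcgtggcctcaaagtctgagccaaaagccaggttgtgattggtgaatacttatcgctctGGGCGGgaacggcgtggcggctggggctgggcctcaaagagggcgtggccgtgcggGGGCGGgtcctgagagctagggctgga
Akr1d1: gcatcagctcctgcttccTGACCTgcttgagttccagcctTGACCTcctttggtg
Cyp8b1: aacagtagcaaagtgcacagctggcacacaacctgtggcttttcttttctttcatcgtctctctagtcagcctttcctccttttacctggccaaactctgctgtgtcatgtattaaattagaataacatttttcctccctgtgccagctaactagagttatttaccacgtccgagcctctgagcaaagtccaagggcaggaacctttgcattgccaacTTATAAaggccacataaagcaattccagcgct

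The stretch of Cyp46a1 held GGGCGG 3 times and no TATAA, and its GC content was 64.4%. Its whole 250-base entry was 67.6% GC with 23 CpG, where the median of 32851 promoters of that length was 52.4% and 6. Cyp8b1 was the opposite, at 44.8% GC with 4 CpG, no GGGCGG, and a TATAA beginning 31 bases before the start. The 55 bases shown for Akr1d1, cut at the annotated gene, held AGGTCA 2 times, the same number as its whole 250-base entry. That entry was 45.2% GC with 1 CpG, closer to Cyp8b1 than to Cyp46a1. The entries not shown, of Cyp27a1 and Hsd3b7, were 54% and 58% GC with 7 and 1 CpG. Searched on both strands, GGGCGG was present in 32.7% of all promoters, TATAA in 22.8% and AGGTCA in 14%. These matches describe the letters of the window, and no binding was measured.

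Cyp7a1, the 7α-hydroxylase that sets the rate of the neutral route, was the gene that rose. It stood at 229, 170 and 229 CPM with AAV8-TBG-GFP and at 269, 273 and 270 CPM with AAV8-TBG-Cre. The 3 Cre livers were nearly equal and all above the GFP livers, among which replicate 2 was low. The means were 209 ± 34.0 and 271 ± 2.38 CPM (SD, n = 3 each), 1.29-fold higher with Cre. The log2 fold change was 0.37 (SE 0.15, unadjusted p = 0.0359 and adjusted p = 0.207 in edgeR, exact permutation p = 0.1). Within the short and long names, the log2 ratio of mean CPM was 0.43 and 0.25. The call was lost without AAV8-TBG-GFP replicate 2 (log2 fold change 0.24) or without AAV8-TBG-Cre replicate 1, 2 or 3 (0.38, 0.36 and 0.37), and it was also lost with the name form as a covariate (0.34, unadjusted p = 0.0518, edgeR).

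Cyp8b1, the 12α-hydroxylase of the cholic acid branch, was not called. Its CPM was 482, 642 and 696 with GFP and 296, 377 and 912 with Cre. AAV8-TBG-Cre replicates 1 and 2 were the lowest of the 6 livers and replicate 3 the highest, so the groups overlapped. Its log2 fold change was -0.20 (SE 0.40; adjusted p = 0.816, edgeR). Without AAV8-TBG-Cre replicate 3 it was -0.85 (unadjusted p = 0.00697 and adjusted p = 0.136 in edgeR, the lowest of an adjusted range of 0.136 to 0.998 over the alternatives). Without AAV8-TBG-Cre replicate 1 it was 0.084.

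Hsd3b7, which oxidises the 3β-hydroxyl group of the sterol ring, was at 440, 448 and 640 CPM with GFP and at 372, 432 and 464 CPM with Cre. The groups overlapped, and the log2 fold change of -0.27 (SE 0.19; adjusted p = 0.465, edgeR) was not called. Without AAV8-TBG-GFP replicate 3 it was -0.082. With the name form as a covariate the change was -0.39 (unadjusted p = 0.0201, edgeR) and passed the call. Of its 2 annotated transcripts, NM_133943 took 85.3 to 94% of the gene's counts in every liver.

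Akr1d1, the 5β-reductase that bends the ring, fell. Its CPM was 180, 162 and 133 with GFP and 138, 96.7 and 63.8 with Cre. AAV8-TBG-Cre replicate 1 lay just above AAV8-TBG-GFP replicate 3, so the groups overlapped by that 1 pair. The means were 158 ± 23.4 and 99.3 ± 37.0 CPM (SD, n = 3 each). The log2 fold change was -0.67 (SE 0.27, unadjusted p = 0.0364 and adjusted p = 0.209 in edgeR, exact permutation p = 0.2). Within the name forms, the log2 ratio of mean CPM was -0.31 and -0.73. The fold change was negative in all 16 alternatives and called in 8 of them. The call was lost without AAV8-TBG-GFP replicate 1 or 2 (-0.58 and -0.66) and without AAV8-TBG-Cre replicate 2 or 3 (-0.66 and -0.44). Its estimated counts were not whole, so some of its fragments were shared with other transcripts.

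**Figure D2:**
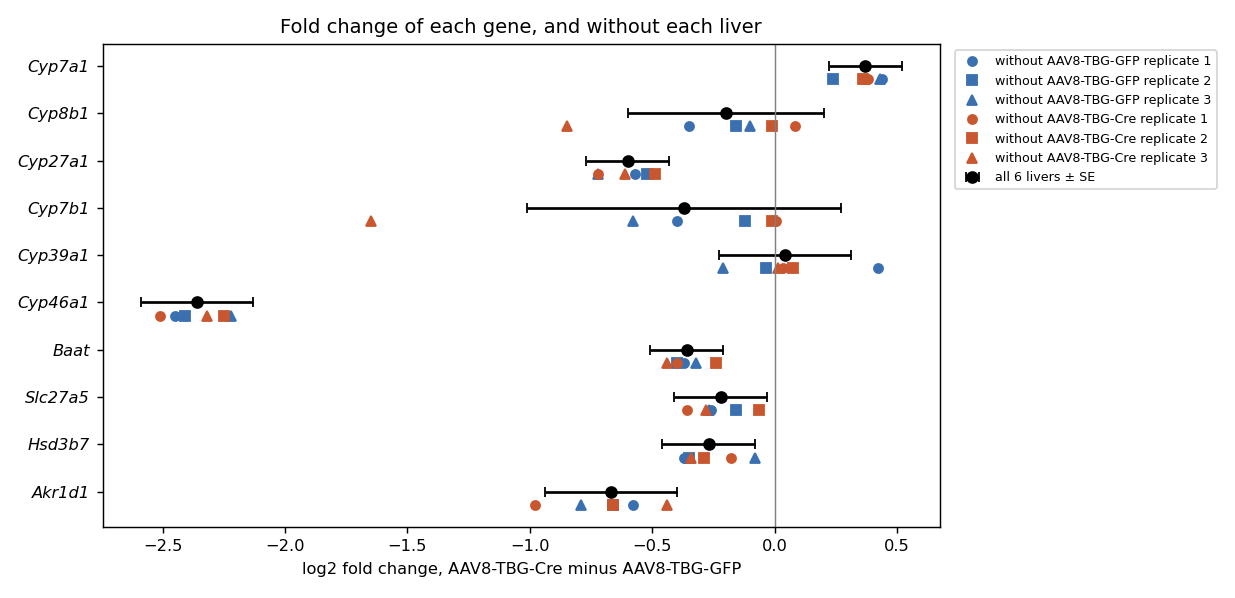
log2 fold change (AAV8-TBG-Cre minus AAV8-TBG-GFP) of the 10 genes with all 6 livers (black, bars are SE) and with each liver left out in turn (coloured marks). Cyp46a1 stays between -2.51 and -2.22, while Cyp7b1 ranges from -1.65 to 0.0058 and its lowest mark is the fit without AAV8-TBG-Cre replicate 3.

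Cyp27a1, the mitochondrial 26-hydroxylase that opens the acidic route, fell. It stood at 490, 515 and 393 CPM with GFP and at 357, 257 and 309 CPM with Cre. Each Cre liver was below each GFP liver in CPM, but in FPKM AAV8-TBG-Cre replicate 1 (187.77) was just above AAV8-TBG-GFP replicate 3 (185.23). The means were 466 ± 64.1 and 307 ± 49.9 CPM (SD, n = 3 each), 1.52-fold higher with GFP. The log2 fold change was -0.60 (SE 0.17; unadjusted p = 0.00917 and adjusted p = 0.119 in edgeR; exact permutation p = 0.1). Within the name forms, the log2 ratio of mean CPM was -0.50 and -0.48. The fold change was -0.72 to -0.49 with each liver left out, and the gene was called in all 16 alternatives. Its adjusted p ranged from 0.017 with DESeq2 to 0.308 and was under 0.05 in 1 of them.

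Cyp7b1, the oxysterol 7α-hydroxylase that follows Cyp27a1, varied most between the Cre livers. Its CPM was 127, 172 and 92.2 with GFP and 39.8, 43.5 and 219 with Cre. As for Cyp8b1, AAV8-TBG-Cre replicates 1 and 2 were the lowest livers and replicate 3 the highest. The means were 130 ± 39.9 and 101 ± 103 CPM (SD, n = 3 each), and the log2 fold change of -0.37 (SE 0.64; adjusted p = 0.784, edgeR) was not called. Without AAV8-TBG-Cre replicate 3 it was -1.65 (unadjusted p = 0.000628 and adjusted p = 0.0871 in edgeR, where the alternatives' adjusted range was 0.0871 to 0.998), and without AAV8-TBG-Cre replicate 1 it was 0.0058. Within the name forms the ratio had opposite signs, at -1.90 and 0.51.

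Cyp39a1, which 7α-hydroxylates the product of Cyp46a1, was not called. Its CPM was 42.1, 25.6 and 18.1 with GFP and 29.8, 28.1 and 30.6 with Cre. The Cre livers were close together inside the GFP range. On the log2 scale the fold change was 0.042 (SE 0.27; adjusted p = 0.948, edgeR). It was 0.42 without AAV8-TBG-GFP replicate 1 (unadjusted p = 0.0484, edgeR, a call) and -0.21 without AAV8-TBG-GFP replicate 3. The log2 ratio of mean CPM also had opposite signs within the name forms (-0.19 and 0.70).

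At the conjugation step, Slc27a5, the bile acid-CoA ligase, had the highest mean level of the 10 per transcript length, though Cyp8b1 was above it in replicate 3 of both groups. Its CPM was 847, 951 and 829 with GFP and 879, 570 and 801 with Cre. The groups overlapped, with AAV8-TBG-Cre replicate 2 the lowest liver. Its log2 fold change was -0.22 (SE 0.19; adjusted p = 0.556, edgeR), and it was called in 0 of the 16 alternatives (unadjusted p under 0.05 in 0 of them, DESeq2 and limma included). With AAV8-TBG-Cre replicate 2 left out it was -0.064, and with replicate 1 left out -0.36.

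Baat, the transferase that attaches taurine or glycine, fell as well. It stood at 214, 201 and 230 CPM with GFP and at 178, 139 and 187 CPM with Cre, without overlap. The means were 215 ± 14.6 and 168 ± 25.8 CPM (SD, n = 3 each), 1.28-fold higher with GFP. The log2 fold change was -0.36 (SE 0.15, unadjusted p = 0.0410 and adjusted p = 0.218 in edgeR, exact permutation p = 0.1). Within the name forms, the log2 ratio of mean CPM was -0.22 and -0.50. The call was lost in 7 of 16 alternatives. These included the fits without AAV8-TBG-GFP replicate 1, 2 or 3 (-0.37, -0.40 and -0.32) and without AAV8-TBG-Cre replicate 2 (-0.24).

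Levels of different genes were set side by side per length, as FPKM (fragments scaled to transcript length and library size). Over the 6 livers Slc27a5 had 344 ± 37.4 FPKM, Cyp8b1 287 ± 106, Hsd3b7 255 ± 40.3 and Cyp27a1 197 ± 41.8 (SD, n = 6). Neighbours among these 4 changed places between livers, each lying above the next in 4 of 6. Baat followed at 96.7 ± 8.80 FPKM, below Cyp27a1 and above Cyp7a1 in all 6. Cyp7a1 (57.5 ± 13.5 FPKM), Cyp7b1 (52.0 ± 31.4 FPKM) and Akr1d1 (46.8 ± 14.0 FPKM) could not be ordered, since Cyp7a1 was above Cyp7b1 in 3 livers and Cyp7b1 above Akr1d1 in 2. Cyp39a1 (9.33 ± 2.61 FPKM) and Cyp46a1 (2.10 ± 1.51 FPKM) came last in every liver. Between the highest and the lowest liver, Cyp46a1 spanned 6.05-fold and Cyp7b1 5.33-fold, and Baat 1.29-fold. The 10 genes summed to 1360, 1462 and 1404 FPKM with GFP and to 1172, 1187 and 1501 FPKM with Cre, where replicate 3 was again the highest liver.

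**Figure D3:**
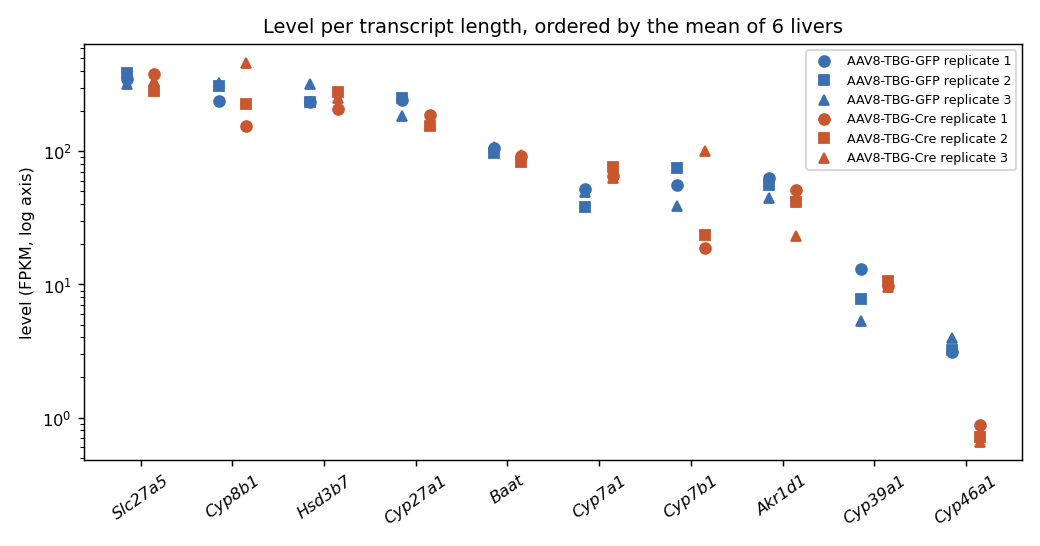
FPKM of the 10 genes on a log axis, ordered by their mean over the 6 livers; each point is 1 liver, coloured by vector. Slc27a5, Cyp8b1, Hsd3b7 and Cyp27a1 overlap at the top, and Cyp39a1 and Cyp46a1 stand apart at the bottom.

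Ratios within a library need no library size, and were used to set the branches against the neutral entry step. The log2 ratio of Cyp8b1 counts to Cyp7a1 counts was 1.08, 1.92 and 1.60 with GFP and 0.14, 0.46 and 1.76 with Cre. AAV8-TBG-Cre replicate 3 lay inside the GFP range, and the difference was -0.75 (1.53 ± 0.43 against 0.79 ± 0.85, SD, n = 3 each; exact permutation p = 0.3). Leaving out AAV8-TBG-Cre replicate 1 gave -0.42, and leaving out its replicate 3 gave -1.23. The log2 ratio of Cyp7b1 to Cyp7a1 was -0.85, 0.016 and -1.31 with GFP and -2.75, -2.65 and -0.30 with Cre. Here too replicate 3 of AAV8-TBG-Cre sat among the GFP livers and the other pair far below, with a difference of -1.19 (exact permutation p = 0.3). Leaving out the same livers gave -0.76 and -1.99, and the difference was -2.33 among short-named and -0.16 among long-named libraries.

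Of the other enzymes of bile acid synthesis, 16 were listed and 15 tested, with 1 called higher and 1 lower and a median log2 fold change of -0.17. That is 13.3% of those tested, below the 20.5% of all genes called in either direction. Fold changes were negative for 12 of the 15, against 6846 of all 13431 genes. Cyp3a11, which hydroxylates bile acids and many drugs, rose from 547, 283 and 721 CPM to 687, 1887 and 1185 CPM (log2 fold change 1.28, SE 0.44, adjusted p = 0.161, edgeR), with overlap in CPM and none in FPKM. Akr1c14, a 3α-hydroxysteroid dehydrogenase, fell from 326, 352 and 213 CPM to 244, 128 and 165 CPM (-0.73, SE 0.28, adjusted p = 0.192, edgeR), also with overlap. Both have close paralogs, with which fragments can be shared. Cyp2c70, which makes the muricholic acids of mice, was not called at 314, 236 and 125 against 339, 82.9 and 96.9 CPM. Ch25h, the remaining oxysterol enzyme of the list, had too few counts to test.

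The 15 regulators of these enzymes held 4 genes that were called, all lower, with a median log2 fold change of -0.18. That is 26.7% of the list, against 20.5% of all genes called in either direction. Nr1h4, which encodes FXR, stood at 165, 174 and 173 CPM with GFP and 149, 101 and 119 CPM with Cre (-0.48, SE 0.15, adjusted p = 0.147, edgeR), without overlap. Nr0b2, the repressor SHP that FXR induces, went from 44.0, 35.5 and 52.8 CPM to 25.3, 37.9 and 17.5 CPM (-0.71, SE 0.27, adjusted p = 0.200, edgeR), and 1 Cre liver lay inside the GFP range. Ppara, the fatty acid receptor, stood at 606, 615 and 572 against 446, 371 and 437 CPM (-0.52, SE 0.14, adjusted p = 0.097, edgeR). Nr1i2, the xenobiotic receptor PXR, stood at 101, 92.4 and 84.2 against 83.0, 59.3 and 56.2 CPM (-0.49, SE 0.17, adjusted p = 0.162, edgeR). Neither of the latter overlapped between groups in CPM, while in FPKM Nr1i2 did (33.21 in AAV8-TBG-Cre replicate 1 against 30.13 in AAV8-TBG-GFP replicate 3). The receptor pair for the gut hormone FGF15 was not called, with Fgfr4 at 0.25 (SE 0.16) and Klb at -0.36 (SE 0.20), nor was Nr5a2, which activates Cyp7a1 and Cyp8b1, at -0.069 (SE 0.11).

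**Figure D4:**
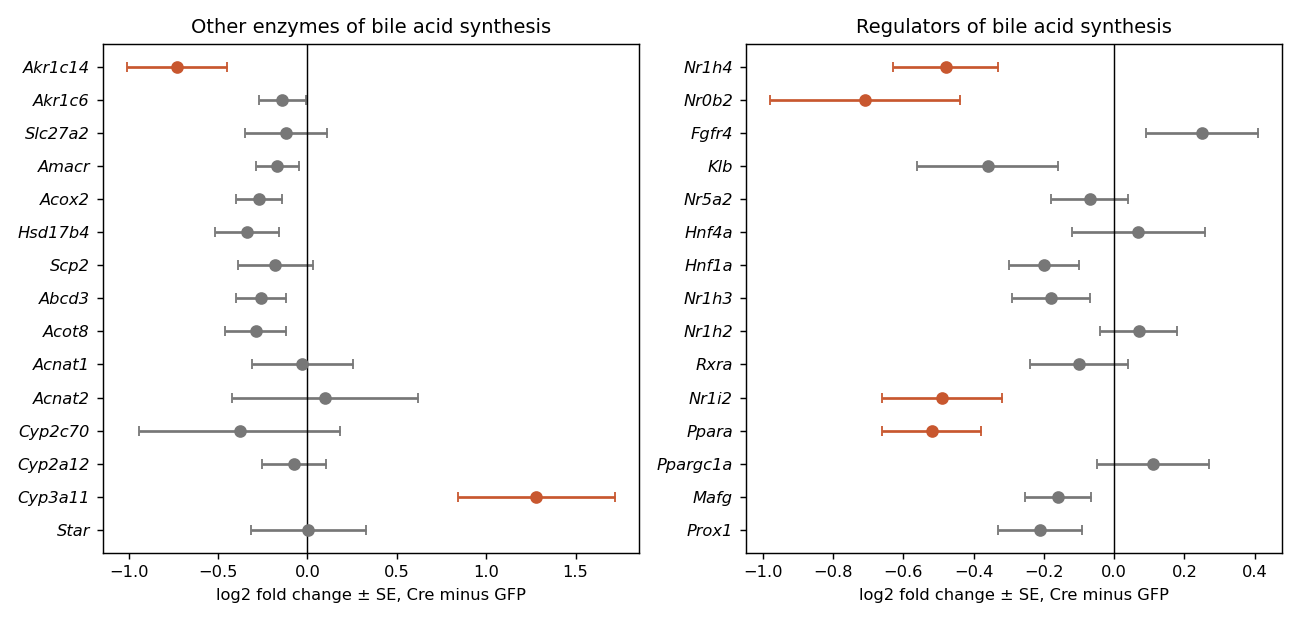
log2 fold change (AAV8-TBG-Cre minus AAV8-TBG-GFP) with SE for the tested enzymes outside the 10 genes and for the 15 regulators; orange marks are genes called and grey marks genes that were not, by the rule of unadjusted p under 0.05 and fold 1.2. Called genes are Cyp3a11 (1.28) and Akr1c14 (-0.73) among the enzymes, and Nr1h4, Nr0b2, Nr1i2 and Ppara, all below 0, among the regulators.

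Other genes that respond to the same receptors were read as lists. Of 6 FXR-responsive genes 4 were tested and 2 were called, both lower, Nr0b2 again and Abcb11, the bile salt export pump. That is 50% of those tested, against 20.5% of all genes called in either direction. Abcb11 stood at 417, 387 and 403 CPM with GFP and at 293, 247 and 289 CPM with Cre (-0.54, SE 0.13, adjusted p = 0.0789, edgeR), without overlap, and the list's median was -0.45. The other 2 tested were not called, with Abcb4 at 0.12 (SE 0.30) and Slc10a1 at -0.35 (SE 0.19). Of 8 genes responsive to the oxysterol receptor LXR, 2 were called (25%, against the same 20.5%), with a median of -0.29. The cholesterol exporter Abcg1 rose (0.82, SE 0.20, adjusted p = 0.0815, edgeR) and the biliary sterol transporter Abcg8 fell (-0.95, SE 0.31, adjusted p = 0.146, edgeR). Of 18 clock genes 3 were called, all lower (16.7%, against the same 20.5%), with a median of 0.10. They were Cry1 (-1.01, SE 0.34, adjusted p = 0.16), Hlf (-0.45, SE 0.15, adjusted p = 0.16) and Nfil3 (-0.84, SE 0.28, adjusted p = 0.158, all edgeR). The time of day of tissue collection is not given in the sources used here.

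Genes with a sex bias in mouse liver moved both ways. Of 8 male-biased genes 3 were called (37.5%, against 20.5% of all genes), with a median of -0.51. Elovl3 (-2.22, SE 0.20, adjusted p = 0.0149) and Hsd3b5 (-4.14, SE 1.02, adjusted p = 0.0854) fell and Cyp4a12b (1.99, SE 0.53, adjusted p = 0.0970, all edgeR) rose. Hsd3b5 in AAV8-TBG-GFP replicate 3 (2.20 CPM) was near the Cre livers (1.67, 0.37 and 2.07 CPM). In FPKM its groups overlapped (1.25 in that GFP liver against 1.27 in AAV8-TBG-Cre replicate 3). Of 11 female-biased genes 5 could be tested and 3 were called (60% of those tested), with a median of -0.11. Cyp2a4 (1.86, SE 0.37, adjusted p = 0.0601) rose and Cyp2b9 (-1.87, SE 0.70, adjusted p = 0.190) and Cyp2b13 (-4.41, SE 0.82, adjusted p = 0.0553, all edgeR) fell. Most of these belong to families of near-identical genes, so their split of fragments is uncertain.

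Markers of some of the cell types a liver can hold differed between the groups. Over all genes tested, 12% were called higher and 8.41% lower. The 10 hepatocyte markers were abundant in all 6 livers, as the labelled tissue requires, and summed to 98532 to 118996 CPM with GFP and 84115 to 105338 CPM with Cre, with overlap, 1 called higher and 1 lower. All 8 cholangiocyte markers tested of 9 were called higher, and the list summed to 72.2 to 128 CPM with GFP and 306 to 574 CPM with Cre. Of 8 macrophage markers 5 were higher and 0 lower (edgeR, with 1 fold change below 0), and they summed to 162 to 201 against 263 to 436 CPM. Neither sum overlapped. The 7 stellate cell markers summed to 180 to 274 against 268 to 539 CPM, with 2 higher, and the 6 endothelial markers to 113 to 172 against 111 to 130 CPM, with 1 lower. Lymphocyte markers summed to 3.66 to 4.64 against 3.80 to 6.74 CPM and neutrophil markers to 6.23 to 7.19 against 6.28 to 9.64 CPM, each list with 2 genes higher and 1 lower. The part of these cell types in the fold changes of Cyp27a1, Baat, Akr1d1 and Cyp7a1 was not tested. In whole liver, fewer hepatocytes and less RNA per hepatocyte cannot be told apart.

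The 10 genes lie on 8 chromosomes and differ in size. On GRCm38.p6, Cyp8b1 spans chr9:121914356-121916305, no longer than its own transcript, while Cyp7b1 spans chr3:18071944-18243890. Cyp46a1 lies at chr12:108334268-108362234, Cyp27a1 at chr1:74713148-74737897, and Akr1d1 at chr6:37529978-37574921. Cyp7a1 (chr4:6265612-6275632) and Baat (chr4:49489416-49507915) share a chromosome, as do Slc27a5 (chr7:12988346-12998192) and Hsd3b7 (chr7:127800609-127803802). Cyp39a1 lies at chr17:43667372-43751431.

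The sequence that the m6A writer prefers, GGACU, was counted in the longest GENCODE transcript of each gene as a description of the transcripts, since no methylation was measured in these samples. Per kilobase, Baat held 2.06, Cyp39a1 1.97, Hsd3b7 1.64, Cyp46a1 1.42, Slc27a5 1.31, Cyp27a1 1.06, Cyp8b1 1.03, Cyp7a1 0.959, Cyp7b1 0.462 and Akr1d1 0.371. The median of 22611 genes was 1.02, and 83.1% of them held the sequence at least once. The genes called lower were spread over this range, from Baat at its top to Akr1d1 at its bottom. In Cyp46a1 all 3 copies were in the coding sequence, and in Cyp7a1 3 of 4 came after the stop codon.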

How the data were processed

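Liver RNA of 6 mice was sequenced (DNBSEQ). Per the labels' processing notes, the authors used HISAT2, Bowtie2 and RSEM with build mm10. The study's methods instead name STAR, HTSeq and DESeq2, and the annotation is not given in the sources used here. The authors deposited expected counts per transcript (45.4% of them whole) and a table of FPKM per gene, and a transcript length that was used for description only. For each NCBI gene the expected counts of its transcripts were added up and the total rounded. Totals were tested in edgeR 4.0.16 (R 4.3.3; TMM, filterByExpr, quasi-likelihood, vector as the only term) with Benjamini-Hochberg adjustment over all genes. CPM used TMM library sizes. The study's call of 1.2-fold and unadjusted p under 0.05 was kept. Counting error alone limits a gene such as Cyp46a1, at 30 to 180 counts, more than the others. Alternatives were DESeq2 1.42.0, other normalizations and filters, limma 3.58.1 on log2(FPKM + 1) and log2(FPKM + 0.1), a replicate block, the name form as a covariate, a fold of 1.5, and each liver left out.

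The members and lists were chosen with earlier results of these data known. Genes named were the 10 enzymes, Mettl14, every called gene of the other enzyme, regulator and response lists (the 4 with the smallest p where over 4 were called), and Nr1h4, Nr0b2, Nr5a2, Fgfr4, Klb and Cyp2c70 in any case. Abcb4 and Slc10a1 were added after their values were seen. Markers were read as lists. The fitting code was tested on simulated data.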

Additional observations from a re-analysis of the deposited data

How the results depend on the processing

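Across 16 alternatives, Cyp46a1 and Cyp27a1 kept their direction and call, and Slc27a5 stayed uncalled. The count of 4 lower enzymes was 2 in each of the 3 limma fits on FPKM, where the share of all genes called lower was also smaller (1.97 to 3.1%, against 8.41%), and 2 to 5 with each liver left out (5.35 to 12.5% of all genes). The 1 higher became 0 with the name form as a covariate (edgeR, unadjusted p = 0.0518 for Cyp7a1) or at a fold of 1.5, and 0 to 2 with each liver left out. The share of all genes called higher was 12% in the reported fit and 10.6% with the name form. It was 8.19 to 14.8% with each liver left out. The 1 with an adjusted p under 0.05 became 2 with DESeq2, 0 with limma on log2(FPKM + 1) without a filter, and 0 to 2 with each liver left out. The number over all genes moved as well, from 125 of 13431 in the reported fit to 1157 of 18416 with DESeq2. It was 9 of 18453 with that limma fit and 0 to 928 with each liver left out. Other enzymes called lower, 1 in the reported fit, numbered 3 with DESeq2 (6.55% of all genes) and 4 with the name form as a covariate (8.82%). They numbered 0 in each limma fit and 0 to 2 with a liver left out, where the shares of all genes were those given above. Other enzymes called higher numbered 0 to 1 with a liver left out. Regulators called numbered 1 instead of 4 at a fold of 1.5. The share of all genes called at that fold was not taken, so neither count given for it has a background beside it. The difference in the log2 ratio of Cyp7b1 to Cyp7a1 was -2.33 among short-named and -0.16 among long-named libraries. Signs turned for Cyp8b1 (0.084) and Cyp7b1 (0.0058) without AAV8-TBG-Cre replicate 1, and for Cyp39a1 without AAV8-TBG-GFP replicate 2 (-0.034) or replicate 3 (-0.21); the cause was not tested. With each liver left out, the log2 fold change ran from -0.85 to 0.084 for Cyp8b1, from -1.65 to 0.0058 for Cyp7b1 and from -0.21 to 0.42 for Cyp39a1. limma on FPKM moved the median of all genes to 0.11 (pseudocount 1) and 0.14 (pseudocount 0.1), and Cyp7a1 stayed positive and Cyp27a1, Cyp46a1, Baat and Akr1d1 negative there.

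Replicate numbers did not pair the livers: same-numbered livers correlated at 0.00915, -0.263 and 0.209, and 2 of 6 correlated best with their own number. With the replicate block in edgeR, 0 of the 10 enzymes had an adjusted p under 0.05 (Cyp46a1 0.0722, unadjusted p = 0.000116), and 7 of all genes passed the adjustment. In that fit 0 other enzymes were called higher, against 11.2% of all genes.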

Other observations

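Cyp7b1 and Cyp8b1 gave the same order of the AAV8-TBG-Cre livers, with replicate 1 lowest (39.8 and 296 CPM), replicate 2 next (43.5 and 377 CPM) and replicate 3 highest (219 and 912 CPM). Cyp4a12b, a male-biased gene, followed that order as well, at 19.5, 33.5 and 81.9 CPM. Of the other male-biased genes listed, Elovl3 and Cyp2d9 followed it, and Cyp4a12a, Hsd3b5, Mup20, Ugt2b38 and Slco1a1 did not. The order rests on 3 livers, was noticed after the values were seen, and was not tested. Among the AAV8-TBG-GFP livers Hsd3b5 split in another way, at 26.4 and 42.8 CPM in replicates 1 and 2 and 2.20 CPM in replicate 3.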
